A study of Homo sapiens with 8 samples.

Results

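The cells described here are those of the JQ1+Pal library in which 3 or more transcripts of PKIB were counted. They were chosen by a rule that uses a measured value, the number of raw PKIB UMIs (unique molecular identifiers, each standing for 1 captured transcript) in a cell, and they are set against the cells of the same library with 0 PKIB UMIs. The rule found 104 PKIB-high cells and 696 PKIB-zero cells among the 1024 cells of JQ1+Pal, and the whole series held 5738 cells in 8 libraries. PKIB is therefore left out of every total and every comparison below, and its own values are given only as a description.

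SUM159, a triple-negative breast cancer line carrying a library of lentiviral DNA barcodes, was profiled by 3' single-cell RNA-seq. Pre is the parental population. DMSO, Tax (paclitaxel, 0.6 nM), JQ1-A (JQ1, 100 nM) and JQ1+Tax (both) came from the experiment labelled for JQ1 with paclitaxel. Pal (palbociclib, 160 nM), JQ1-B (JQ1, 100 nM) and JQ1+Pal (both) came from the one labelled for JQ1 with palbociclib, in which no library analysed here is a vehicle control; the selections ran for at most 18 passages. JQ1 is an inhibitor of the BET bromodomain proteins, palbociclib of the cell cycle kinases CDK4 and CDK6, and paclitaxel stabilizes microtubules. All populations carried the barcode construct. Each selected library mixed cells of replicate cultures before capture; in JQ1+Pal 1 culture of the selection had died out, and the mixed cultures cannot be told apart in the counts. With 1 library for each treatment and experiment, PKIB-high and PKIB-zero cells of JQ1+Pal are compared without a test, and the intervals given cover counting error only.

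PKIB encodes the beta form of the protein kinase inhibitors of cAMP-dependent protein kinase (PKA). When cAMP binds the regulatory subunits of PKA the catalytic subunits are released, and inhibitors of the PKI family bind those free catalytic subunits, block their active site and help carry them out of the nucleus. Of the genes given as markers of these cells beside PKIB, MMP1 encodes interstitial collagenase, a secreted protease that cleaves fibrillar collagens, and CCND1 encodes cyclin D1, the partner of CDK4 and CDK6 in the phosphorylation of the retinoblastoma protein.

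PKIB lies on the long arm of chromosome 6 (GRCh37, chr6:122793062-123047518, plus strand). RefSeq gives it 3 start sites, and the window at the third, 250 bases before the start to 50 after, is printed because it holds the 7-base AP-1 element (TGAGTCA or its reverse complement TGACTCA, searched on both strands) at 2 places, 230 and 61 bases before the start. The windows of the other start sites hold none. Those of CPA4, S100A2 and PLAUR, members of the genes more than 2-fold higher in PKIB-high cells below, are printed with it; 49 of the 83 UMIs of S100A2 lay in 1 PKIB-high cell, and its ratio went from 2.64 to 1.11 without that cell. Each is written 5' to 3' on the strand of its gene in the GRCh38.p14 build, with the AP-1 element in capitals: PKIB, the third start site (chr6:122652479-122652778, plus strand); CPA4 (chr7:130292911-130293210, plus strand); S100A2, first of 2 start sites (chr1:153565795-153566094, minus strand); PLAUR (chr19:43670120-43670419, minus strand).
PKIB: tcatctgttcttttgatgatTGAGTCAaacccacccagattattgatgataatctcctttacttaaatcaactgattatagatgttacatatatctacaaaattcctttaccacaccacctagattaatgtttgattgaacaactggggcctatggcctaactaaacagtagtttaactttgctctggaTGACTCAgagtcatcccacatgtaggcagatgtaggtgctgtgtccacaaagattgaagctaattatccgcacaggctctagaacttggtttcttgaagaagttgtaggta
CPA4: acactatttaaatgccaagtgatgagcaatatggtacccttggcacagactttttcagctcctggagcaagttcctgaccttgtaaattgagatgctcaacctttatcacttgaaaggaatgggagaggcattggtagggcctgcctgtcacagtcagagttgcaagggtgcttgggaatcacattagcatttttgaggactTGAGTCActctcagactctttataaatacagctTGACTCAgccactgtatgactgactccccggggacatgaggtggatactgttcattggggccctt
S100A2: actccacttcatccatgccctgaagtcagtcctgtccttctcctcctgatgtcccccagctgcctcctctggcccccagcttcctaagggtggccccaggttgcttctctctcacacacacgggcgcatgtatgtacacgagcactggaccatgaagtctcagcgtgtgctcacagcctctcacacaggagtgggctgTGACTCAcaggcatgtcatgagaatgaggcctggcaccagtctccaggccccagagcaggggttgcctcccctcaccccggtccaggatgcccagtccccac
PLAUR: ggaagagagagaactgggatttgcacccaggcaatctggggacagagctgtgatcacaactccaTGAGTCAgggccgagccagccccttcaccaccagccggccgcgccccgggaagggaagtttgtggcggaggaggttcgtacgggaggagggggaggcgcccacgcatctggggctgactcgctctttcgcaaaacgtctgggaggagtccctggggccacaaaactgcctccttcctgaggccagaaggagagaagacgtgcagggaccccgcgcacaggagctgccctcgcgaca

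PKIB was detected at the lowest level in JQ1+Pal, at 33.5 CPM (UMIs of the gene when all UMIs are scaled to 1000000) over all cells of the library. The corresponding levels were 118 CPM in Pre, 105 in DMSO, 48.7 in Tax, 39.8 in JQ1-A, 41.8 in JQ1+Tax, 94.6 in Pal and 56.5 in JQ1-B. Tax and the 4 libraries exposed to JQ1 lay below Pre, DMSO and Pal. PKIB-high cells made up 10.2% of JQ1+Pal (95% Clopper-Pearson interval 8.37 to 12.2%), against 36.2% of Pre, 34.9% of DMSO, 15.8% of Tax, 12.5% of JQ1-A, 11.4% of JQ1+Tax, 33.3% of Pal and 18.2% of JQ1-B. After each cell was thinned to 10000 UMIs, 3.49% of the cells of JQ1+Pal still had 3 or more, and the other libraries spanned 3.49 to 15.5%. These shares were not tested, because the gene was chosen for its pattern in these data.

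**Figure D1:**
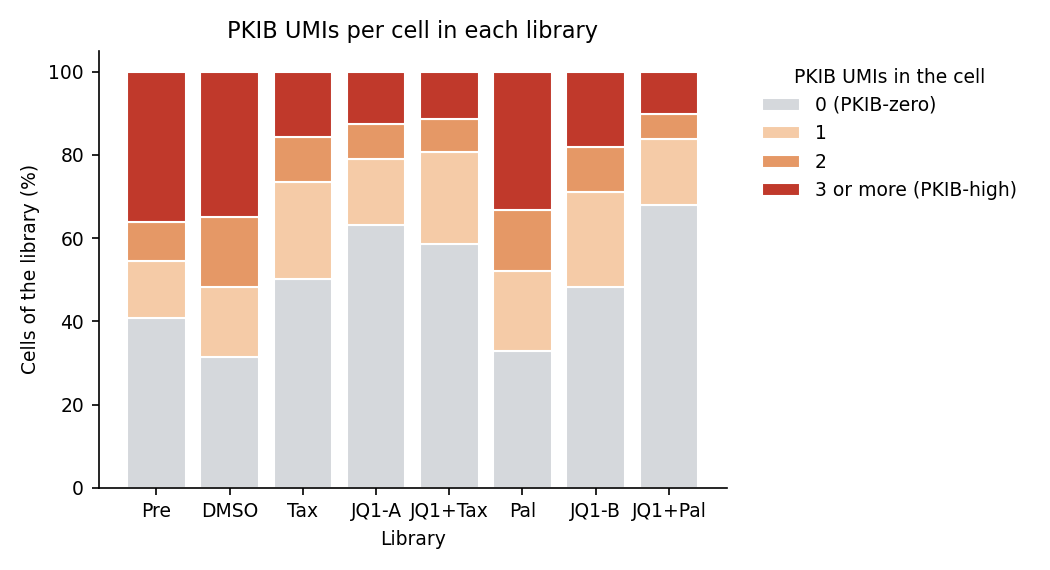
PKIB UMIs per cell by library. Stacked bars give the percentage of cells of each of the 8 libraries with 0, 1, 2 and 3 or more PKIB UMIs; the top part, the PKIB-high cells, is smallest in JQ1+Pal at 10.2% and largest in Pre at 36.2%.

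Within JQ1+Pal, 161 cells had 1 PKIB UMI and 63 had 2, just outside the threshold, while 27 had 3 and 34 had 4. Another 43 had 5 or more, of which 4 had 10 or more, and the highest count was 19. The PKIB-high cells held 64.7% of the PKIB UMIs of the library. They were slightly deeper than PKIB-zero cells, with a median of 23829 against 21891 UMIs per cell, a ratio of 1.09, whereas the ratio in the other 7 libraries was 1.17 to 1.38. The median number of genes detected was 4287 against 3762, and the median mitochondrial share was 7.29% in both. None of the 26 cells whose barcode occurs in more than 1 library was a PKIB-high cell of JQ1+Pal. Of the 12 blood, endothelial and fat markers, 4 were in the table; PTPRC, CD14 and PLIN1 were at 0 UMIs in PKIB-high and PKIB-zero cells, and HBA1 had 1 and 6.

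PKIB-high cells of JQ1+Pal resembled each other in the rest of their transcriptome. With PKIB left out and cells thinned to 10000 UMIs, 29.3% of the 30 nearest neighbours of a PKIB-high cell were PKIB-high, against 2.88% of those of a PKIB-zero cell, where the share among all 972 cells was 10.5%. The cells in between were ordered by their PKIB count, with 9.80% for cells with 1 UMI and 19.6% for cells with 2. Cells with 5 or more reached 31.6%. The share around PKIB-high cells was 10.2 times that around PKIB-zero cells in JQ1+Pal, while the ratio in the other libraries ranged from 1.20 in DMSO to 2.26 in Pre. Relative to the share in the library, PKIB-high cells had 2.79 times as many PKIB-high neighbours in JQ1+Pal and 1.16 to 1.39 times in the others, whose shares of PKIB-high cells were 11.6 to 36.9%. This difference between libraries was described and not tested.

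In total, 4746 genes reached 20 CPM in the higher of both kinds of cell in JQ1+Pal. Of these, 41 (0.864%) were at least 2-fold higher in PKIB-high cells and 11 (0.232%) at least 2-fold lower. The median gene was itself higher by 0.16 on the log2 scale, and scaling by trimmed means (TMM) in place of total UMIs lowered each log2 ratio by 0.19, which gave 17 genes higher and 19 lower. Part of the rise lay in few cells: 25 of the 41 genes were still 2-fold higher when, for each gene, the PKIB-high cell with most of its UMIs was left out, and 15 when the 5 such cells were left out. The contrast was tested in libraries that the rule did not use, by edgeR's quasi-likelihood test across Pre, DMSO, Tax, JQ1-A, JQ1+Tax, Pal and JQ1-B with library as a block. There, 193 of 10562 genes (1.83%) were higher in PKIB-high cells and 244 (2.31%) lower at an adjusted p under 0.05. Of the 41 genes, 37 had the same direction in those libraries and 12 were called higher. All of the 11 lower genes had the same direction and 4 were called lower. Over all genes tested in those libraries the median log2 difference was 0.002. The share of all eligible genes with the same direction in both was not counted. A second test asked whether the contrast in JQ1+Pal differed from that in the other 7 libraries; its spread comes from the other libraries, and the single JQ1+Pal library is assumed to vary like them. In that test 32 of 10565 genes (0.303%) had a higher contrast in JQ1+Pal and 67 (0.634%) a lower one. With PKIB-zero cells matched on UMIs these calls fell to 5 and 13. The 32 and 67 included 16 of the 41 and 5 of the 11. That overlap is no separate support, because the 41 and 11 were picked on the same JQ1+Pal counts that this test uses. For genes named below for their ratio in JQ1+Pal, the size of this difference is therefore only a description. Within the other 7 libraries, the contrast was also compared between those exposed to JQ1 and those not exposed: 2 of 10562 genes (0.0189%) were called higher with JQ1 and 0 (0.0%) lower by edgeR, where 756 had an unadjusted p under 0.05, and DESeq2 called 0 in either direction.

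MMP1 (GRCh37, chr11:102660132-102668891) was the most increased of the protein-coding genes that passed the filter, with 262.8 CPM (244 to 282) in PKIB-high cells of JQ1+Pal and 34.0 CPM (31.2 to 37) in PKIB-zero cells, a ratio of 7.73 (6.91 to 8.65). In the other libraries its level in PKIB-high and PKIB-zero cells was 49.6 and 8.43 CPM in Pre, 13.9 and 4.24 in DMSO, 88.4 and 16.4 in Tax, 24.3 and 11.8 in JQ1-A, 20.03 and 4.12 in JQ1+Tax, 18.3 and 2.85 in Pal, and 83.9 and 9.84 in JQ1-B. MMP1 was higher in the PKIB-high cells of all 8 libraries, and both levels were highest in JQ1+Pal. Across the 7 other libraries the log2 difference was 2.32 ± 0.15 (SE, adjusted p = 8.9e-11 by edgeR). The contrast in JQ1+Pal was not shown to differ from it, at 0.48 ± 0.28 (SE) further on the log2 scale (adjusted p = 0.62). At least 1 MMP1 UMI was found in 78.8% of PKIB-high and 22.99% of PKIB-zero cells of JQ1+Pal, or in 59.8% and 12.3% after thinning; all cells are of 1 line, so there is no cell type that should lack the gene to set beside these shares. The 10 PKIB-high cells with most MMP1 held 413 of its 742 UMIs, 55.7%, and without them the ratio was 4.05. MMP1 was concentrated elsewhere too: 1 PKIB-high cell held 200 of 374 UMIs in JQ1-B and 56 of 121 in Pal, and without the cell with most MMP1 the ratio was 3.998 in JQ1-B, 3.47 in Pal and 1.58 to 4.74 over all 7.

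MMP1 belongs to a list of 35 matrix proteases and their inhibitors, of which 16 passed the filter in JQ1+Pal and 3 were more than 2-fold higher (against 0.864% of all eligible genes), none lower. The median log2 ratio of the list was 0.32 above that of all eligible genes. The other members past 2-fold were PLAU, the urokinase plasminogen activator (28.3 against 11.1 CPM, ratio 2.56), and PLAUR, its receptor (32.2 against 15.9 CPM, ratio 2.03). In the other libraries their PKIB contrast was not called, with ratios of 0.866 to 1.76 and 0.938 to 1.46. Without cells above the 95th percentile of UMIs, the log2 ratio of PLAUR in JQ1+Pal fell from 1.02 to 0.54. In 1 PKIB-high cell lay 22 of the 91 UMIs of PLAUR, and its ratio was 1.60 without that cell. Leaving out the 5 PKIB-high cells with most UMIs of each gene gave ratios of 1.72 for PLAU, 1.27 for PLAUR and 4.84 for MMP1. PLAT, the tissue plasminogen activator, had a ratio of 1.87 in JQ1+Pal and was called across the other libraries (log2 0.53 ± 0.08, SE, adjusted p = 9.4e-05). TFPI2, an inhibitor of serine proteases, had 54.9 against 29.6 CPM, and its log2 difference elsewhere was 1.06 (adjusted p = 8.6e-09). TIMP1, an inhibitor of metalloproteases, had 6496 against 4835 CPM in JQ1+Pal and a log2 difference of 0.70 elsewhere (adjusted p = 1.4e-05 by edgeR). Without the 5 PKIB-high cells of JQ1+Pal with most UMIs of each gene, the ratios were 1.72 for PLAT, 1.20 for TFPI2 and 1.13 for TIMP1. In all, 5 of the 20 members tested in the other libraries were higher in PKIB-high cells and 2 lower (1.83% and 2.31% of all genes), and none differed between JQ1+Pal and the others.

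Several of the largest rises of JQ1+Pal were weaker in the other libraries. CPA4, a metallocarboxypeptidase, had 50.3 CPM (42.4 to 59.3) in PKIB-high and 11.8 CPM (10.2 to 13.6) in PKIB-zero cells, a ratio of 4.25. Its levels in the same order were 23.1 and 18.0 CPM in Pre, 24.0 and 22.8 in DMSO, 23.4 and 19.4 in Tax, 15.5 and 14.4 in JQ1-A, 24.8 and 17.0 in JQ1+Tax, 17.2 and 12.3 in Pal, and 30.5 and 23.9 in JQ1-B, so that the PKIB-high cells of JQ1+Pal were above every other value and its PKIB-zero cells below every other value, though within counting error of the 12.3 CPM of Pal. The contrast of CPA4 was larger in JQ1+Pal than elsewhere by 1.66 ± 0.21 (SE) on the log2 scale. CPA4 was picked for its ratio in the same JQ1+Pal counts, so this size is a description and may be overstated.

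CDA, the cytidine deaminase of pyrimidine salvage, had 23.02 and 4.42 CPM in PKIB-high and PKIB-zero cells of JQ1+Pal, a ratio of 5.21 (3.66 to 7.39). The higher level rested on 65 UMIs in 29 of 104 cells, 15 of them in 1 cell. The ratio was 4.05 without that cell and 2.58 without the 5 cells with most CDA. In the other libraries its levels were 103 and 77.0 CPM in Pre, 135 and 74.7 in DMSO, 72.7 and 49.5 in Tax, 31.8 and 33.2 in JQ1-A, 15.3 and 12.5 in JQ1+Tax, 61.1 and 46.0 in Pal, and 47.4 and 38.4 in JQ1-B. PKIB-zero cells of JQ1+Pal thus had the lowest CDA level of all, and PKIB-high cells lay within the range of the others. The contrast of CDA was called elsewhere too (log2 0.39, adjusted p = 0.0026). It was larger in JQ1+Pal by 1.83 ± 0.32 (SE), on the counts for which CDA was picked.

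The transporter genes SLC7A5 and SLC3A2, which encode the light and heavy chains of a transporter of large neutral amino acids, were both above 2-fold. SLC7A5 had 85.0 against 30.3 CPM, a ratio of 2.81, and its ratio elsewhere ran from 0.978 in Pal to 1.28 in Tax, with 2.54 in JQ1+Tax. SLC3A2 had 63.4 against 30.6 CPM, a ratio of 2.07, and ratios of 0.757 to 1.11 elsewhere. Their contrasts were larger in JQ1+Pal by log2 1.17 and 1.08, on the counts that had placed both past 2-fold. Without cells above the 95th percentile of UMIs, the log2 ratio of SLC3A2 fell from 1.05 to 0.59. Both are members of a list of 27 ATF4 and stress genes. Of these, 17 passed the filter and 2 were past 2-fold in JQ1+Pal, with a median 0.11 above that of all genes. In the test of the difference, 3 of the 23 tested were called higher in JQ1+Pal, against 0.303% of all genes. SLC7A5 and SLC3A2 are among the 3 and had been placed past 2-fold on the same counts, so this share is no separate support. The third, DDIT3, a stress-induced transcription factor, was below the filter at 18.8 against 5.67 CPM. It had 24 of its 53 UMIs in 1 cell, and its ratio fell from 3.31 to 1.89 without that cell. Without the 5 PKIB-high cells with most UMIs of each gene, SLC3A2 had a ratio of 1.40 and DDIT3 1.24. ATF4 itself had 97.8 against 105 CPM, and ASNS and TRIB3, common targets of ATF4, had ratios of 1.29 and 0.828.

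The remaining genes among the 12 largest rises included the basal keratin gene KRT15 (21.3 against 6.17 CPM, ratio 3.45), which was also higher elsewhere (log2 0.61, adjusted p = 0.027), and SLC14A1, a urea transporter (ratio 3.15, log2 0.96 elsewhere, adjusted p = 7.7e-06). C9orf169 had a ratio of 3.26, CRISPLD2, a secreted protein, 3.23 and the water and glycerol channel gene AQP3 3.08, without a call elsewhere. The ratio of AQP3 lay inside the range of the other libraries, 0.746 to 4.09. SCG5, a neuroendocrine chaperone, had a ratio of 2.92 and was also called higher elsewhere (log2 0.31, adjusted p = 0.043 by edgeR). Only part of the rise in IGFBP7, a secreted binding protein of the insulin-like growth factor family, was spread over cells. It had 125.8 against 42.0 CPM, a ratio of 2.99, with 142 of its 355 UMIs in 1 cell, and a ratio of 1.85 without that cell. AP000692.10, with the highest ratio, 8.83, rested on 1 cell for 43 of its 59 UMIs and had a ratio of 2.49 without it and 0.985 without the 5 cells with most of its UMIs. RP11-669N7.2 had 94.6 CPM against 33.5 CPM, a ratio of 2.82, while its ratio in the other libraries ran from 0.030 in Pre to 1.61 in JQ1+Tax, with no call across them (adjusted p = 0.15). Its contrast was larger in JQ1+Pal by log2 2.16, on the counts for which it was picked.

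The genes lower in PKIB-high cells were led by CADM3, a cell adhesion molecule, with 7.08 against 28.5 CPM (ratio 0.248, 0.150 to 0.388). Its ratio was below 1 in each of the other 7 libraries, at 0.298 to 0.569, and its log2 difference across them was -1.16 (adjusted p = 1.3e-05). TGFBI, a secreted matrix protein induced by transforming growth factor beta, had 369 against 793 CPM in JQ1+Pal, a ratio of 0.466. In PKIB-high and PKIB-zero cells of the other libraries it had 126 and 253 CPM in Pre, 165 and 241 in DMSO, 204 and 287 in Tax, 378 and 457 in JQ1-A, 321 and 586 in JQ1+Tax, 370 and 711 in Pal, and 265 and 387 in JQ1-B. TGFBI was lower in the PKIB-high cells of all 8 libraries, by 0.72 ± 0.07 (SE) on the log2 scale across the other 7 (log2 -0.72, adjusted p = 6.2e-08), and its contrast in JQ1+Pal was not shown to differ (adjusted p = 0.20). STAC2, an adaptor protein (ratio 0.324), IGFBP2, a secreted binding protein of insulin-like growth factors (26.2 against 78.7 CPM, ratio 0.333), and HAGHL (ratio 0.418) were not called elsewhere, where the ratios of IGFBP2 ran from 0.611 to 1.19. Their contrasts were lower in JQ1+Pal, by -1.60, -1.46 and -1.26 on the log2 scale, on the counts for which they were picked. HBE1, an embryonic globin gene (ratio 0.467), and ABLIM3, an actin-binding protein (0.477), were called lower in both tests. The second of these used the counts for which both genes were picked. DCTN4, GPAM, SPOCK1 and NOA1 completed the lower genes, at 0.477 to 0.493, and TNFAIP2, at 0.516, fell just short.

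**Figure D2:**
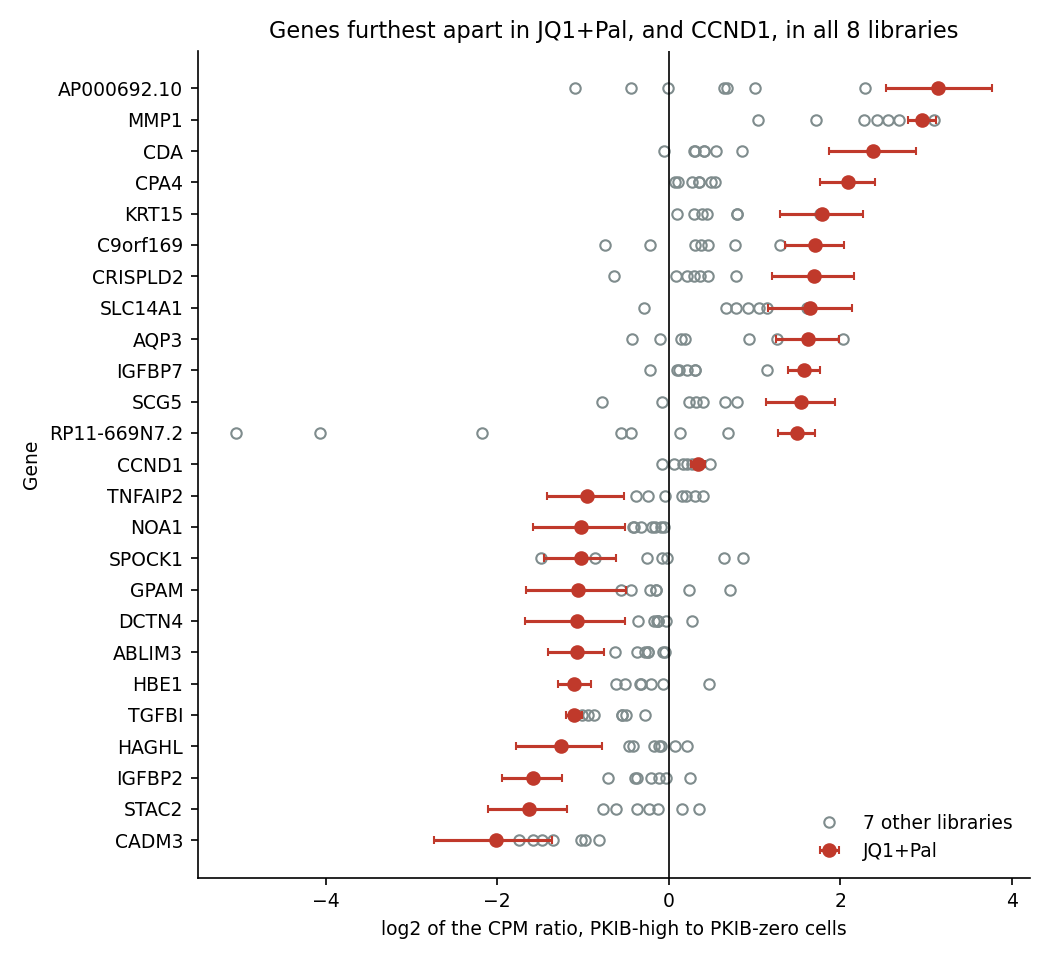
Genes with the largest differences in JQ1+Pal and their ratios elsewhere. Points give the log2 ratio of CPM in PKIB-high to PKIB-zero cells for the 12 largest rises, CCND1 and the 12 largest falls. They are filled for JQ1+Pal with 95% Clopper-Pearson intervals for counting error and open for each of the other 7 libraries. MMP1, TGFBI and CPA4 keep their side in all 8, but CPA4 in the other libraries lies only between ratios of 1.05 and 1.46.

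Levels of MMP1, CPA4 and TGFBI were also compared between the PKIB counts of JQ1+Pal, including cells that the threshold left out. In the order of 0, 1, 2, 3, 4, 5 to 9 and 10 or more PKIB UMIs, MMP1 had 34.0, 76.6, 244, 154, 214, 208 and 907 CPM. CPA4 had 11.8, 23.7, 34.7, 50.9, 37.3, 55.1 and 73.1 CPM, and TGFBI had 793, 672, 510, 399, 476, 307 and 196 CPM. None of the 3 moved one way at every step, and IGFBP7, at 42.0, 63.8, 53.0, 85.4, 227, 69.2 and 108 CPM, had no steady course. The levels thus already differed between cells with 0 and 1 UMI, and cells with 2 UMIs, just outside the rule, had 244 CPM of MMP1 where cells with 3 UMIs, just inside it, had 154. No more than 4 cells stand behind the last value of each. These were deeper, with a median of 55641.5 UMIs per cell against 20553 to 26577 at the lower PKIB counts.

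**Figure D3:**
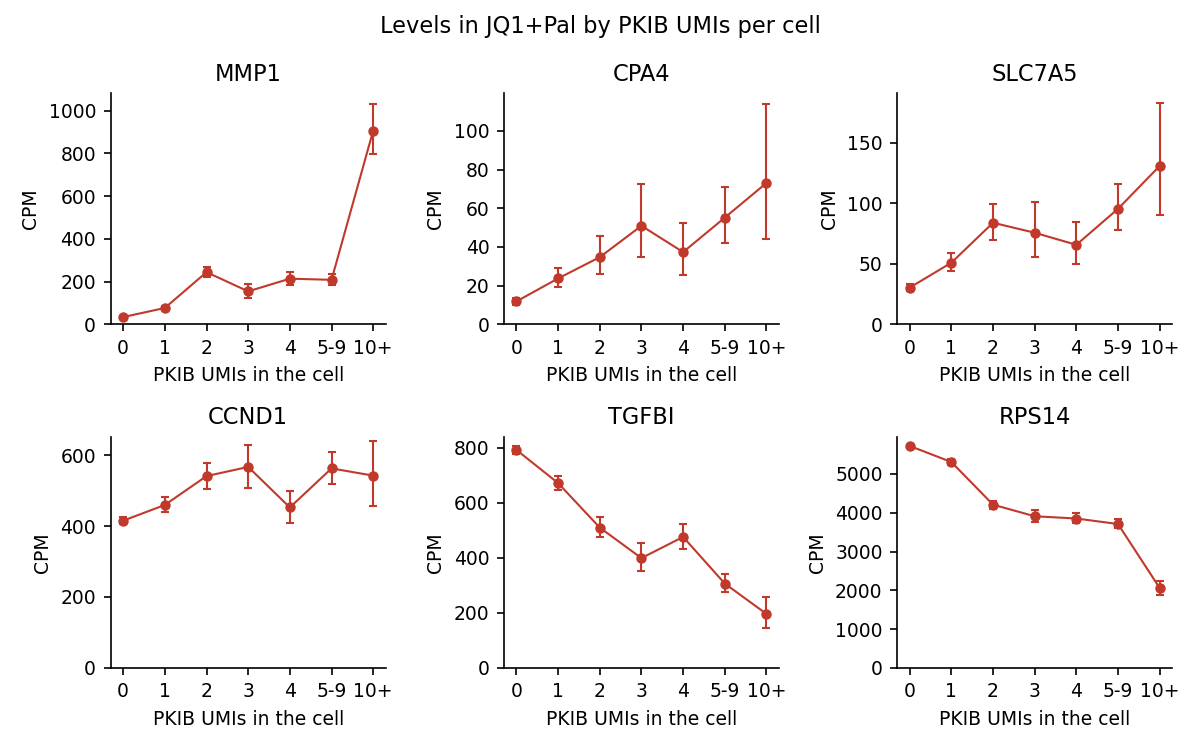
Levels by PKIB count in JQ1+Pal. CPM of summed UMIs of MMP1, CPA4, SLC7A5, CCND1, TGFBI and RPS14 are plotted against the number of PKIB UMIs in the cell. Bars are 95% exact Poisson intervals for counting error. MMP1 goes from 34.0 CPM in 696 cells with 0 to 907 CPM in 4 cells with 10 or more, and TGFBI from 793 to 196 CPM. Those 4 cells were deeper, with a median of 55641.5 UMIs.

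CCND1 differed less than MMP1 between both kinds of cell. It had 527 CPM in PKIB-high and 415 CPM in PKIB-zero cells of JQ1+Pal, a ratio of 1.27 (1.20 to 1.34). In the other libraries it had 211 and 165 CPM in Pre, 179 and 172 in DMSO, 369 and 328 in Tax, 290 and 240 in JQ1-A, 198 and 208 in JQ1+Tax, 272 and 194 in Pal, and 327 and 282 in JQ1-B. Both kinds of cell of JQ1+Pal were above every other value, and PKIB-high cells were higher in 6 of the 7 other libraries. The difference across them was log2 0.17 ± 0.05 (SE, adjusted p = 0.043), a call kept in 7 of 18 settings, and JQ1+Pal was not shown to depart from it (log2 0.02, adjusted p = 0.98). Of the drug targets, CDK4 had 166 against 122 CPM (ratio 1.36) and CDK6 26.9 against 29.9 CPM (ratio 0.900), and neither was called across the other libraries. RB1, encoding the retinoblastoma protein, was below the filter with 51 UMIs in PKIB-high cells and had a ratio of 1.57. CDKN1A, the CDK inhibitor p21, had a ratio of 1.75, and neither gene was called in either test. Without the 5 PKIB-high cells with most UMIs of each gene, the ratios were 1.22 for RB1 and 1.38 for CDKN1A. In the other libraries RB1 had ratios of 0.770 to 1.30 and CDKN1A of 0.958 to 1.29. BRD2, which encodes a BET protein, had a ratio of 1.21. MYC had 493 against 590 CPM (ratio 0.837) and was lower across the other libraries (log2 -0.20, adjusted p = 0.0026).

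Of the G1-S list, 12 of 27 cyclin, CDK and RB genes passed the filter and none was past 2-fold, with a median 0.14 above that of all eligible genes. CCND1 was the member called higher elsewhere and MYC the member called lower, of 22 tested. None of the 17 S phase and 32 G2/M genes that passed was past 2-fold, and their summed levels in PKIB-high relative to PKIB-zero cells were 1.06 and 1.02 in JQ1+Pal, against 1.01 to 1.20 and 0.969 to 1.34 elsewhere. The PKA signalling list, with 17 of 39 members past the filter, had none past 2-fold and a median 0.07 below that of all genes. PRKACA, a catalytic subunit, had a ratio of 0.905, PRKAR1A, a regulatory subunit, 1.06, and PKIG, another inhibitor of the PKI family, 1.22. AKAP12, an anchoring protein of PKA, was the list's call among 35 tested elsewhere (log2 0.55, adjusted p = 0.0039), and it had 56.3 against 36.3 CPM in JQ1+Pal. None of 24 AP-1 and MAPK feedback genes, 22 matrix, laminin and integrin genes, 6 BET and P-TEFb genes and 6 secreted cytokines was past 2-fold, with medians of -0.02, -0.02, 0.08 and -0.31 relative to all genes. Of the 17 cytokines tested elsewhere 5 were lower, against 2.31% of all genes, and none higher. Among 4 epithelial markers that passed, KRT15 was past 2-fold, and among 9 mesenchymal markers TGFBI was, downwards. The medians of these lists were 0.36 and -0.14 relative to all genes, and 5 of the 9 mesenchymal markers had ratios above 1. In the other libraries 2 of 5 epithelial markers were higher (1.83% of all genes), KRT8 (log2 0.21, adjusted p = 0.0034) and KRT15. There, 3 of 15 mesenchymal markers were lower (2.31% of all genes). FN1, fibronectin, was among the latter (log2 -0.22, adjusted p = 0.035) and had 221 against 285 CPM in JQ1+Pal.

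Ribosomal protein transcripts took a lower share of UMIs in PKIB-high cells in 7 of the 8 libraries, and a higher one in JQ1+Tax (33.2 against 33.0%). They made up 27.1% of UMIs in PKIB-high and 32.3% in PKIB-zero cells of JQ1+Pal, where the other libraries had 28.1 to 33.2% and 29.4 to 33.5%. All of the 80 ribosomal protein genes that passed the filter lay below the median gene, by 0.48 on the log2 scale at their median, although none was 2-fold lower. This list was chosen after its values were seen, and many of its members have near-identical pseudogene copies that can share their reads. RPS14, for example, had 3645 against 5723 CPM, a ratio of 0.637. With rising PKIB count it went through 5723, 5309, 4208, 3910, 3851, 3709 and 2057 CPM, the last in 4 deeper cells. In the other libraries 34 of 83 ribosomal protein genes were called lower, against 2.31% of all genes, and none higher, RPS14 by log2 -0.25 (adjusted p = 1.4e-05). In the test of the difference 43 of 83 were lower in JQ1+Pal than elsewhere, against 0.634% of all genes, and none higher. Ribosomal protein genes thus accounted for 43 of its 67 lower calls. With PKIB-zero cells matched on UMIs, 3 of the 83 were called lower, at a median log2 difference of -0.31 in place of -0.36. The part of this shift in the other ratios of JQ1+Pal was not tested.

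By position on GRCh37, known for 98.3% of the eligible genes, the median log2 ratio differed between chromosomes. Relative to all eligible genes, the 245 genes of chromosome 12 had a median of 0.21, the 197 of chromosome 16 0.17 and the 232 of chromosome 6 0.14, whereas the 350 of chromosome 2 had -0.20 and the 238 of chromosome 5 -0.19. In the other 7 libraries the same medians ran from -0.02 to 0.09, 0.00 to 0.06, -0.05 to 0.07, -0.09 to 0.02 and -0.24 to -0.02. Chromosomes 12, 16, 6 and 2 of JQ1+Pal lay outside the range of the others and chromosome 5 inside it. In low-cycling cells (31 against 246) chromosome 2 was at -0.06, inside the range of the others, while chromosomes 12, 16 and 6 were at 0.22, 0.19 and 0.21. On the long arm of chromosome 16, 84 of 94 genes were above the median gene. Leaving out ribosomal protein genes gave 0.22, 0.17, 0.15, -0.19 and -0.19 in the same order of chromosomes. The size of each shift grew with the PKIB count: cells with 1 or 2, 3 or 4, and 5 or more UMIs had 0.10, 0.13 and 0.27 on chromosome 12 and -0.10, -0.17 and -0.24 on chromosome 2. Shifts of this kind were not confined to JQ1+Pal, since 13 of 23 chromosomes lay outside the range of the other 7 libraries there, 10 in JQ1+Tax, 9 in Pre and 0 to 4 in the rest. The spread over chromosomes was an SD of 0.0997 in JQ1+Pal, 0.118 in Pre and 0.105 in JQ1+Tax.

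**Figure D4:**
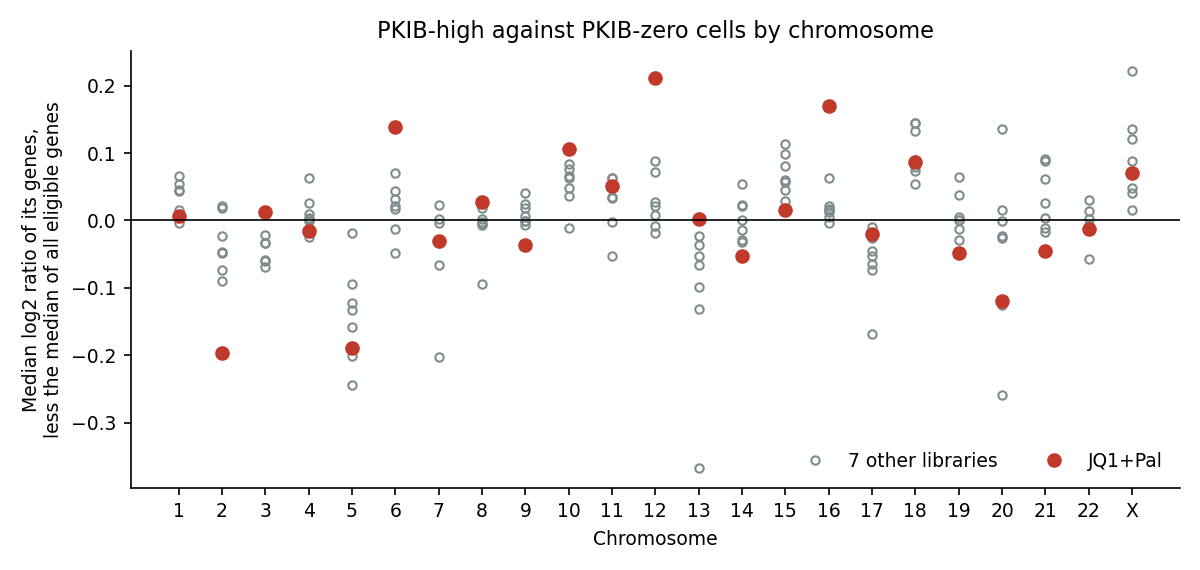
Median log2 ratio by chromosome. Each point is the median over eligible genes of 1 chromosome relative to all eligible genes of the library, for JQ1+Pal and the other 7 libraries; chromosome 12 of JQ1+Pal is at 0.21 and chromosome 2 at -0.20, both outside the other libraries.

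Of the 5 genes to either side of PKIB on chromosome 6, 3 passed the filter: SERINC1 (ratio 1.34), TPD52L1 (1.45) and HDDC2 (1.22). None was past 2-fold, and GJA1, the gap junction protein connexin 43, below the filter at 18.4 CPM, had a ratio of 1.51. Across the 8 libraries, the level of PKIB was most closely followed by LACTB, SLC50A1, CCDC53, HTATIP2 and B9D1 (Pearson's r of 0.973, 0.973, 0.972, 0.972 and 0.969 over 8 libraries, a description that rests on levels that separate Pre, DMSO and Pal from the rest). Within JQ1+Pal these 5 genes had ratios of 0.940 to 1.23, so that following PKIB between libraries did not go with a 2-fold difference between its cells.

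The AP-1 element shown above for PKIB, CPA4, S100A2 and PLAUR was found in the RefSeq windows of 6 of the 31 genes 2-fold higher that could be matched by symbol (19.4%), the others being SLC3A2, RSPH3 and FAM107B. When the PKIB-high cell with most UMIs of each gene was left out, 1 of these 6, CPA4, was still past 2-fold, and the lowest ratio was the 1.11 of S100A2. It was in 4.28% of 3716 eligible genes, in 6.05% of all 27305 genes with a window (4.95% of all 35116 windows) and in none of the 7 matched lower genes. In CPA4 it lies 48 and 15 bases before the start, in S100A2 52 bases and in PLAUR 186 bases before it. The cAMP response element TGACGTCA was in none of the 31, in 4.33% of eligible genes and in 2.25% of all genes (1.85% of all windows). A match is a run of letters and not a measured site; MMP1, CCND1, KRT15 and IGFBP7 had no window to search.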

How the data were processed

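The authors aligned reads to hg19 with Cell Ranger, and the deposited table holds raw UMI counts per gene and cell, with the library of each cell in a deposited metadata table. The authors' filter was 1 to 15% mitochondrial UMIs and at least 2000 genes; all deposited cells were used, with the filter as an alternative. No doublet caller was run; cells above the 95th percentile of UMIs were left out in an alternative. Libraries held 10621200 to 24240835 UMIs, with medians of 20664 to 22503 per cell. The cells and gene lists were chosen with earlier results of these data known.

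UMIs were summed per library and kind of cell, as CPM without PKIB, with exact Poisson intervals for levels and Clopper-Pearson intervals for ratios (95%). Genes with 20 CPM in the higher group were eligible. edgeR 4.0.16 (quasi-likelihood, TMM, filterByExpr, Benjamini-Hochberg) in R 4.3.3 tested sums of the 7 other libraries, each with at least 20 cells of either kind, on 6 residual degrees of freedom. These libraries are different treatments, so p-values measure the spread between them. The difference between JQ1+Pal and the others was added after the data were seen; it and a test of JQ1 exposure are interaction terms. DESeq2 1.42.0 was an alternative. Scripts were tested on simulated data. Neighbours used 20 principal components of 2000 variable genes.

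Named genes were the 12 largest rises and falls in JQ1+Pal, the 5 largest calls each way across other libraries, PKIB, MMP1, CCND1, drug targets (1 result is not reported here), list members past 2-fold, 5 genes either side of PKIB, and the 5 following it most closely. Other genes named (such as PLAT, TIMP1, TFPI2, DDIT3, ATF4, ASNS, TRIB3, AKAP12, KRT8, FN1, RPS14 and the motif genes) were chosen after their values were seen.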

Additional observations from a re-analysis of the deposited data

Results flagged for a closer look

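The PKIB contrast of JQ1+Pal differed from that of the other 7 libraries by edgeR's test of the difference for 99 genes, 32 higher and 67 lower, the test being chosen after the data were seen. The largest higher log2 differences were 4.63 for GDF15, 2.55 for LETM2, 2.26 for C1QTNF1-AS1, 2.16 for RP11-669N7.2 and 1.83 for CDA. For GDF15, a stress-induced cytokine, 38 of 43 UMIs lay in 1 PKIB-high cell, and its ratio fell from 27.2 to 3.25 without that cell. Only 4 PKIB-high cells had any UMI of GDF15. The largest lower differences were -1.68 for PTPLAD1, -1.60 for STAC2, -1.51 for NAAA, -1.46 for IGFBP2 and -1.26 for HAGHL. Of 15 settings, NAAA was called in 8 (largest adjusted p = 0.25), PTPLAD1 in 10 (0.31) and CDA in 12 (0.22). RP11-669N7.2, STAC2, IGFBP2 and HAGHL were called in 13 each. LETM2 and C1QTNF1-AS1 were called in 12 of 14 settings and GDF15 in 8 of 9, not of all 15. Settings that keep the same cell do not show how far GDF15 rests on it.

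Between the other libraries exposed to JQ1 and those not exposed, the contrast differed for SAA1, an acute-phase protein (log2 2.70), and CD70, a ligand of the tumour necrosis factor family (1.80), out of 10562 genes tested. SAA1 was called in 11 of 12 settings and CD70 in 5 of 12, with adjusted p up to 0.82. The ratio of SAA1 in PKIB-high to PKIB-zero cells was 2.07 in JQ1-A, 1.62 in JQ1+Tax and 3.82 in JQ1-B, against 0.298 in Pre, 0.0974 in DMSO, 0.737 in Tax and 0.316 in Pal; in JQ1+Pal, which was not in that test, it was 0.196. That of CD70 was 2.05 to 2.56 with JQ1, 0.383 to 1.46 without, and 9.82 in JQ1+Pal on 19 and 11 UMIs. Both values of JQ1+Pal rest on few PKIB-high cells. SAA1 had 4 UMIs in 2 of them, and the 19 UMIs of CD70 lay in 4, with 8 in 1 cell. SAA1 shares reads with its near-identical copy SAA2.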

How the results depend on the processing

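Counts of genes 2-fold apart within JQ1+Pal depended on the settings, against 41 higher and 11 lower as reported. They were 86 and 23 with cells thinned to 10000 UMIs, 370 and 136 with groups found after thinning (34 against 770 cells), 22 and 3 with 2 or more PKIB UMIs, 97 and 24 with 5 or more, 17 and 19 with TMM scaling, 193 and 60 with a minimum of 5 CPM, 1448 and 361 with no CPM filter, 108 and 30 in low-cycling cells (31 against 246 cells) and 336 and 42 at 1.5-fold. With all other cells as the comparison, 25 were higher. AP000692.10 turned to a log2 ratio of -0.50 in low-cycling cells, where few cells remain. The share of PKIB-high cells in JQ1+Pal was 3.49% after thinning, 32.0% with 1 or more UMIs and 4.20% with 5 or more.

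Across the other libraries, 193 and 244 calls became 79 and 124 by DESeq2, where 202 of its 203 calls were shared, 82 and 135 after thinning and 122 and 144 with PKIB-zero cells matched on UMIs. Leaving out 1 library gave 94 to 186 higher and 118 to 221 lower, fewest without Pre. Without the library block edgeR made 0 calls; with it 1779 genes had an unadjusted p under 0.05. That test is paired within each library. No paired analysis was possible between treatments because every library is replicate 1 of its own group.

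The 32 and 67 calls of the difference for JQ1+Pal became 14 and 82 by DESeq2, 13 and 60 after thinning, 5 and 13 with matching and 55 and 128 with no filter on low counts; of the 99 calls, 58, 55, 17 and 93 were shared. Leaving out 1 library gave 22 to 47 higher and 45 to 84 lower. For exposure to JQ1, 2 higher and 0 lower (756 unadjusted) became 0 higher by DESeq2, 1 and 1 after thinning and 4 lower with matching, and leaving out 1 library gave 1 to 6 higher and 0 to 6 lower, most without Pal and 1 lower without Tax. The cause of these moves was not tested. With 104 PKIB-high cells, a gene near 20 CPM rests on few UMIs (59 for AP000692.10), and 1 library carries no replicate error.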

Other observations

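Across the 7 other libraries, the genes of largest difference outside the lists were called at low levels in JQ1+Pal. Besides MMP1, the largest rises by edgeR were in KLHL4 (log2 1.64, adjusted p = 0.00018), LTBP1, a binding protein of latent transforming growth factor beta (1.18, adjusted p = 5.7e-05), TSPAN8 (1.07, adjusted p = 0.0026) and HPGD, which inactivates prostaglandins (1.07, adjusted p = 0.0014). KLHL4, LTBP1 and HPGD were higher in PKIB-high cells of all 7 and TSPAN8 in 5 of 7. In JQ1+Pal KLHL4 had 3.90 against 0.623 CPM, LTBP1 5.67 against 2.62, TSPAN8 1.42 against 0.187 and HPGD 1.06 against 1.25. TSPAN8 rested on 4 UMIs and HPGD on 3 in the PKIB-high cells, too few to give a direction. The largest falls were in SAA2 (-1.46), FAM65B (-1.39), SAA1 (-1.25), CCNJL (-1.19) and RPL39L (-1.17), with adjusted p of 0.0016, 0.016, 0.0051, 0.010 and 0.00088. CCNJL and RPL39L were lower in all 7, but SAA1 and SAA2 in 4 and FAM65B in 5 of the 7, with ratios above 1 in JQ1-A and JQ1-B among others for SAA1 and SAA2. In JQ1+Pal SAA1 had 1.42 against 7.23 CPM, on 4 UMIs in PKIB-high cells, and CCNJL 3.54 against 1.93 CPM, on 10. PKIB-high cells had no UMI of SAA2 or FAM65B.

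Among other genes with low adjusted p, MT2A, which encodes a metallothionein, had 7924 against 10266 CPM in JQ1+Pal and a log2 difference of -0.24 elsewhere (adjusted p = 9.5e-05). MT1X, of the same family, had 507 against 965 CPM and -0.25 elsewhere (adjusted p = 0.0025), with a lower contrast in JQ1+Pal by -0.83 (adjusted p = 0.0021). The haem oxygenase gene HMOX1 had 123 against 207 CPM and -0.62 elsewhere (adjusted p = 2.1e-05). These 3 genes were picked after their values were seen and stand for no list; metallothioneins are near-identical copies whose reads can be shared.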
